A study of Mus musculus with 25 samples.

Results

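The genes described here are 38 genes of DNA replication and mitosis, read in RNA from mouse colon. Members were the rows of the expression table whose Ensembl identifier maps to the chosen symbols: 36 of the 38 were found among 49452 gene identifiers, 17 of them replication genes and 19 mitosis genes. Gins2 and Cdt1, both on the replication side, were not analysed here. The symbols are genes of these functions, chosen with earlier results of these data known. Rows were then matched by identifier, without use of their values.

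RNA sequencing libraries of distal colon came from 25 mice, aged 6 weeks, on the C57BL/6 background, in 5 genotypes of 5 mice each. Nemofl/fl mice, the controls, carry a floxed allele of the gene for NEMO (Ikbkg), the regulatory subunit of the kinase complex that activates NF-κB. NEMOIEC-KO mice lack NEMO in intestinal epithelial cells, and the driver of the deletion is not given in the sources used here. The 3 double mutants combine that epithelial deletion with a further label. NEMOIEC-KO Il12b-/- mice, here Il12b-labelled, concern p40, which IL-12 and IL-23 both use. NEMOIEC-KO Il12a-/- mice (Il12a-labelled) concern p35 of IL-12, and NEMOIEC-KO Il23a-/- mice (Il23a-labelled) concern p19 of IL-23. Each library is a separate mouse, and the tissue is whole colon, so fewer cells of a type and less RNA per cell cannot be told apart. The question put to the genes was whether replication and mitosis genes differ between the genotypes, and whether they do so alike.

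Dividing cells copy their DNA in S phase and separate it in mitosis. Cyclin E with its kinase and the E2F transcription factors start the replication programme: Cdc6 loads the ring-shaped MCM helicase on origins, Cdc45 and the GINS complex activate it, the PCNA clamp holds the polymerases, and Rrm1, Rrm2, Tyms and Tk1 supply nucleotides. The later programme holds Cdk1 with cyclins A2, B1 and B2, the Aurora and Polo-like kinases, the spindle checkpoint (Bub1, Bub1b), kinesins, the centromere histone Cenpa, and Cdc20 and Ube2c, which act in the breakdown of cyclin B. In colon the dividing cells lie chiefly in the lower crypt, and immune cells that divide add to the same RNA.

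The promoters of these genes are shown because the rule for members joins 2 programmes that are known for different promoter elements: E2F sites in replication genes, and the cell cycle homology region, often with CCAAT boxes, in genes of G2 and mitosis. RefSeq windows of 250 bases before to 50 bases after a gene's start (GRCm38.p6) were found for 30 members, in 31 windows. Searched on both strands were the words TTTCCCGC, TTTGGCGC and TTTCGCGC for E2F, TTTGAA and TTCGAA for the cell cycle homology region, and CCAAT. The 200 bases before the start of 6 genes that passed a test below follow, 5′ to 3′, with matches that lie before the start in capitals.
Mcm2, chr6:88898781-88898980, minus strand: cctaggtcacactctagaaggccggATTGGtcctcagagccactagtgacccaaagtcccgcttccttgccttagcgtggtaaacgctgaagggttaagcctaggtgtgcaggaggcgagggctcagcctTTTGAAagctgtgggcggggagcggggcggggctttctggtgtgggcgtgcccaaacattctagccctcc
Mcm3, chr1:20820313-20820512, minus strand: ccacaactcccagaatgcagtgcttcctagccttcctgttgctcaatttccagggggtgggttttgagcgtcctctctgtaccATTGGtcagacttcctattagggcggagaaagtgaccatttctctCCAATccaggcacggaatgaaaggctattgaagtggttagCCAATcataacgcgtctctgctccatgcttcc
Mcm5, chr8:75109309-75109508, plus strand: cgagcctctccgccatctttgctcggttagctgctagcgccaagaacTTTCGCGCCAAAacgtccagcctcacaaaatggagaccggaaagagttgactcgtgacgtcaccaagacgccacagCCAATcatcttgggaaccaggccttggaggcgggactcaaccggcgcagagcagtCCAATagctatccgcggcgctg
Plk1, chr7:122159235-122159434, plus strand: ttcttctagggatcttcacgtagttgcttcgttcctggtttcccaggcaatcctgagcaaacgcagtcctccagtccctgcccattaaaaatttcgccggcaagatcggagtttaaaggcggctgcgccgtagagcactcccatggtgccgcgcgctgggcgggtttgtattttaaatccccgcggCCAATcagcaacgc
Cenpa, chr5:30666686-30666885, plus strand: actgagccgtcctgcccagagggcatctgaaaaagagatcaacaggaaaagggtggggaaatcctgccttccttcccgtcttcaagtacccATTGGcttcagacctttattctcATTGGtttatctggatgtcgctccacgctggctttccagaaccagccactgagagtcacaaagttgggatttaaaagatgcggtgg
Ube2c, chr2:164769729-164769928, plus strand: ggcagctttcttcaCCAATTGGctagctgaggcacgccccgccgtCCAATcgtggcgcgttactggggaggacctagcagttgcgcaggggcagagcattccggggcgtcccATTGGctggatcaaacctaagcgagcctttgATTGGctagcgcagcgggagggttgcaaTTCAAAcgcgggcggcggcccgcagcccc
The capitals show how the elements were spread. Mcm5 holds a pair of overlapping E2F words, the first starting 153 bases before the start, where TTTCGCGC on one strand and TTTGGCGC on the other share bases. Ube2c has CCAAT words at 6 positions, the farthest 228 bases before the start and so outside the stretch printed, and a cell cycle homology word 29 bases before the start. The 2 E2F words of Mcm3 lie 19 and 38 bases after its start, and the cell cycle homology words of Cenpa and Plk1 lie 16 and 30 bases after theirs, so none of these last appears above either.

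Over the whole window, an E2F word was found in 31.2% of the 16 replication windows, 6.67% of the 15 mitosis windows and 1.84% of all 32851 windows in the table. A cell cycle homology word was found in 18.8% of replication windows, 80% of mitosis windows and 19.2% of all windows. CCAAT was found in 68.8%, 86.7% and 37.4%. By gene, an E2F word was present in 5 of 15 replication and 1 of 15 mitosis genes, and a cell cycle homology word in 3 of 15 and 12 of 15. The replication windows thus held the homology word about as often as promoters at large. A match is a description of letters and shows no binding.

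Before the comparisons, 2 facts about the libraries. Depth is unknown, since FPKM, a fragment count divided by transcript length and by library size, keeps no counts: the mitochondrial share of summed FPKM ran from 2.65% to 13.3%, and a relative depth read from the smallest steps of the values from 0.688 to 1.15. Ikbkg was 9.08 ± 1.14 FPKM in Nemofl/fl (SD, n = 5) and had group means of 3.34 to 4.08 in the other 4 genotypes, while epithelial markers such as Epcam (756 to 1196 FPKM) were high in every library. Il12b RNA, in contrast, was higher in the Il12b-labelled mice (0.994 ± 0.223 FPKM, n = 5) than in NEMOIEC-KO (0.171 ± 0.0799, n = 5), and Il12a RNA was higher in the Il12a-labelled mice (1.2 ± 0.586 against 0.421 ± 0.313). Whole-gene values cannot show a partial deletion, so these double mutants are named by label, and every direction below is between libraries so labelled.

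The other fact is 1 library. In replicate 2 of the Il12b-labelled mice, every one of the 36 members was above all 4 other libraries of its genotype. Its FPKM was 1.64 to 5.58 times the median of those 4, lowest for Pcna and highest for Rrm2, with a median over members of 2.84. The gap was large enough to mark that library as standing apart (Dixon's criterion at 95% for 5 values) in 33 of 36 members, or 91.7%, against 7.83% of all 19266 genes tested. The other cell cycle genes shared this: 52 of 57 further replication genes and 62 of 63 further mitosis genes were highest there within the genotype, against 37.9% of all genes tested. The same library had the lowest summed smooth muscle markers of its group (1745 FPKM, others 4561 to 8269) and the highest sums of epithelial (16564, others 12785 to 14843), T cell (44.9, others 8.91 to 21.8) and B cell markers (216, others 21.5 to 109). It was also highest for monocyte and macrophage (353, others 186 to 257) and germinal center markers (14.2, others 4.31 to 9.6). Its mitochondrial share, 2.65%, was the lowest of all 25 libraries (6.45% to 8.71% in the other 4). Their part in the result was not tested. Its Ikbkg (3.65 FPKM) and Il12b (0.79 FPKM) were close to those of its group. Comparisons of the members that involve this genotype are given with and without it. Single genes of the other lists are given with all libraries only.

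The mean log2(FPKM + 0.5) over the members of each class gives the overall level. For replication genes it was 2.94 ± 0.17 in Nemofl/fl (SD, n = 5 in each genotype), 3.46 ± 0.38 for NEMOIEC-KO, 3.12 ± 0.59 in Il12b-labelled, 3.20 ± 0.11 in Il12a-labelled and 3.59 ± 0.48 in Il23a-labelled mice. For mitosis genes it was 3.50 ± 0.21, 3.85 ± 0.51, 3.42 ± 0.67, 3.83 ± 0.16 and 4.10 ± 0.43 in the same order. Both classes were highest on average in the Il23a-labelled mice. NEMOIEC-KO came next for replication, and for mitosis it lay level with the Il12a-labelled mice. The spread was wide there and narrow in the Il12a-labelled mice, whose 5 replication levels lay between 3.08 and 3.33. Without replicate 2, the Il12b-labelled libraries lay between 2.69 and 2.98 for replication, inside or below the Nemofl/fl range of 2.76 to 3.15.

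**Figure D1:**
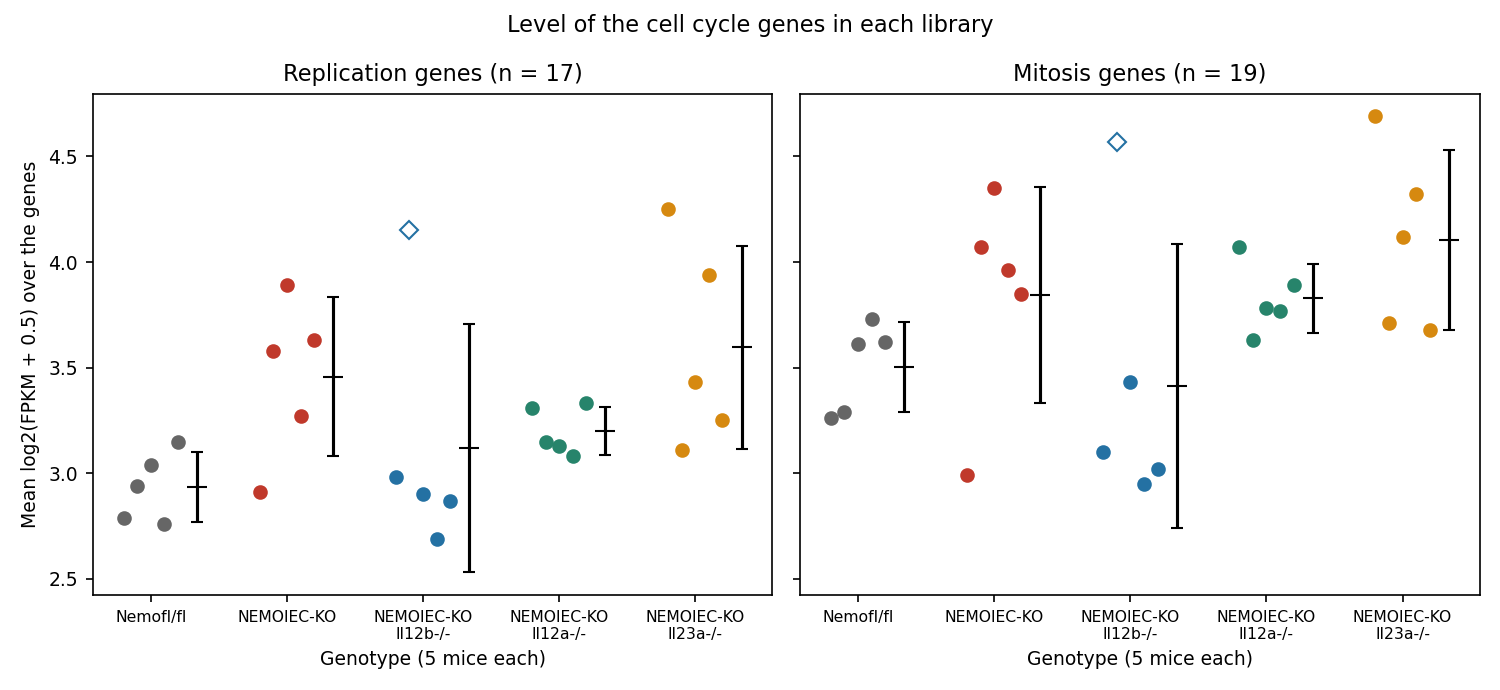
Mean log2(FPKM + 0.5) over 17 replication genes (left) and 19 mitosis genes (right) in each library, by genotype; bars are the mean ± SD of 5 mice. The open diamond is Il12b-labelled replicate 2, at 4.15 for replication where the other 4 of its group lie between 2.69 and 2.98.

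Replication and mitosis genes moved together from mouse to mouse. After the mean of each genotype was taken off, the levels of the 2 classes had a Pearson r of 0.91 and a Spearman rho of 0.77 over 25 libraries, and of 0.83 and 0.67 over 24 without Il12b-labelled replicate 2. These are descriptions: both classes are read from the same libraries and share their depth and scaling. The replication level minus the mitosis level was negative in every one of the 25 libraries. Its mean was -0.57 in Nemofl/fl, -0.39 for NEMOIEC-KO, -0.29 in Il12b-labelled, -0.63 in Il12a-labelled and -0.51 in Il23a-labelled mice. The size of that difference depends on which genes are in each class, so only its change between genotypes can be compared. It ran from -0.97 in Nemofl/fl replicate 4 to -0.08 in NEMOIEC-KO replicate 1, and the ranges of the genotypes overlapped. The difference between the classes was not tested.

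**Figure D2:**
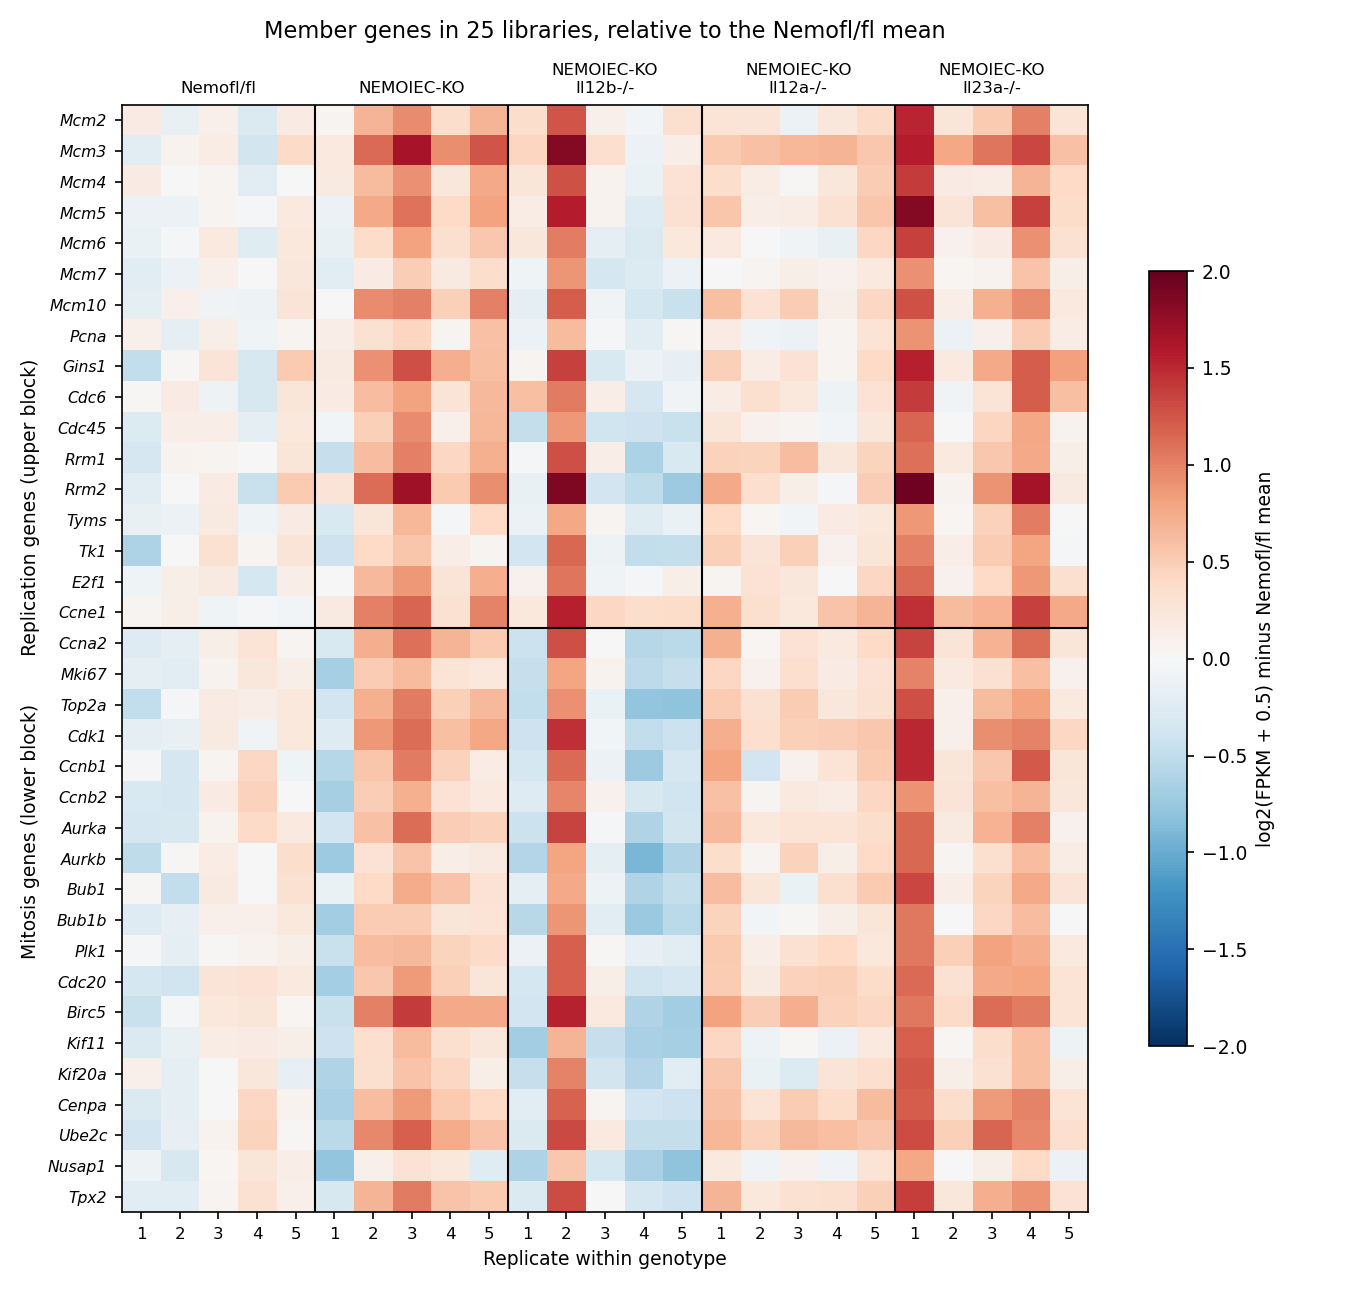
Log2(FPKM + 0.5) of each member minus its mean in Nemofl/fl, for 25 libraries in genotype blocks (columns) and 36 genes (rows, replication above mitosis). Il12b-labelled replicate 2 is red in all rows beside 4 pale or blue columns, and the Il23a-labelled and NEMOIEC-KO blocks hold both strong and pale columns.

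Epithelial loss of NEMO went with higher RNA of 3 replication genes. In NEMOIEC-KO against Nemofl/fl, 3 of 36 members rose (8.33%) and none fell, and 35 of 36 had a positive estimate, with a median log2 fold change of 0.44. Over all genes tested, 11.9% were called higher and 20.3% lower, so the members' share called was no larger than that of genes at large; the median over all genes was -0.08. The 3 genes were the helicase subunit Mcm3, the GINS subunit Gins1 and Ccne1, which encodes cyclin E1, and no mitosis gene passed the test (limma, adjusted p below 0.05). Replication members had a median of 0.50 and mitosis members of 0.33.

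Mcm3 encodes one of the 6 MCM2-7 ring subunits and lies at chr1:20802968-20820312, minus strand. Its Nemofl/fl libraries, replicates 1 to 5, read 10.9, 13.4, 14.1, 9.74 and 16.7 FPKM, and the NEMOIEC-KO libraries 14.6, 28.5, 40.8, 24.6 and 31.1. Of the latter, 4 were above every control and replicate 1 lay inside the control range. The log2 fold change was 1.03 ± 0.28 (SE, adjusted p = 0.009), and it stayed past the threshold when any 1 library of the 2 groups was left out.

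Ccne1, which starts the S phase programme with its kinase, lies at chr7:38097984-38107534, minus strand. It read 2.31, 2.45, 2.04, 2.16 and 2.11 FPKM among the controls and 2.56, 4.95, 5.56, 2.83 and 4.91 in NEMOIEC-KO, so the groups did not overlap. The log2 fold change was 0.73 ± 0.23 (adjusted p = 0.02). The Ccne1 promoter window held none of the words searched.

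Gins1, part of the complex that joins Cdc45 to the helicase, lies at chr2:150905400-150931280, plus strand. Nemofl/fl values were 1.64, 2.56, 3.07, 1.9 and 3.8 FPKM, and NEMOIEC-KO values were 2.9, 5.16, 6.79, 4.47 and 4.07. The NEMOIEC-KO replicate 1 value lay among the controls. The log2 fold change was 0.74 ± 0.28 (adjusted p = 0.047), and it passed in 2 of the 10 fits that each left out 1 library.

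Among the members that did not pass, Mcm10, which helps the helicase start unwinding, had 0.68 ± 0.26 (adjusted p = 0.051) and Rrm2, the small subunit of ribonucleotide reductase, 0.90 ± 0.41 (adjusted p = 0.096). Birc5, the survivin of the chromosomal passenger complex, had 0.70 ± 0.34 (adjusted p = 0.12). Nusap1, which bundles spindle microtubules, was the 1 member with a negative estimate, -0.09 ± 0.22.

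The count rested on which NEMOIEC-KO libraries entered. Replicate 1 had the lowest level of both classes in its group (2.91 and 2.99), and its summed smooth muscle markers were the highest of the group, at 4673 FPKM. Without it 11 members rose, 7 of replication and 4 of mitosis, against 13.3% of all genes. The count was 1 without replicate 2 or without replicate 3, fits whose shares over all genes are not given here. Among libraries that share a library code in the labels (NEMOIEC-KO replicates 3 to 5 and all Nemofl/fl), 20 members rose, 12 of replication and 8 of mitosis, against 12% of all genes. Replicate 1 and replicate 2 carry the code of the double mutants other than Il23a-labelled replicate 5, which has a code of its own.

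Against the controls, the Il23a-labelled mice had higher RNA of 6 replication genes and 3 mitosis genes. Of 36 members, 9 rose (25%) and none fell, against 12.6% higher and 17% lower over all genes, and all 36 estimates were positive with a median of 0.62. On the replication side 6 of 17 passed, the helicase subunits Mcm2, Mcm3 and Mcm5, the loader Cdc6, Gins1 and Ccne1. On the mitosis side 3 of 19 passed, the kinase Plk1, the centromere histone Cenpa and the ubiquitin-conjugating enzyme Ube2c. The class medians were 0.57 for replication and 0.63 for mitosis. This comparison shares its Nemofl/fl libraries with the one before, so the 2 are not independent.

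The helicase subunits had the following values, with controls first. Mcm2 read 6.94, 5.48, 6.58, 4.92 and 6.86 FPKM in Nemofl/fl and 18.4, 7.32, 8.95, 12.8 and 7.51 in the Il23a-labelled mice, without overlap (log2 fold change 0.71 ± 0.23, adjusted p = 0.028). Mcm3 read 38.7, 22.2, 27.4, 32.9 and 19.3 in the Il23a-labelled mice, all above the highest control at 16.7 (1.07 ± 0.28, adjusted p = 0.0096). Mcm5 read 7.47, 7.45, 8.48, 7.99 and 9.35 in Nemofl/fl and 30.2, 9.84, 12.6, 21.7 and 10.6 in the Il23a-labelled mice, without overlap (0.89 ± 0.30, adjusted p = 0.031). In each of the 3 genes the Il23a-labelled replicates 1 and 4 were the highest of the genotype, and the other 3 lay nearer the controls.

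Replicates 1 and 4 were also the highest Il23a-labelled libraries for the other 3 replication genes. Cdc6 read 1.11, 1.28, 0.982, 0.776 and 1.37 FPKM in Nemofl/fl and 3.67, 1.02, 1.43, 3.18 and 1.91 in the Il23a-labelled mice (0.68 ± 0.25, adjusted p = 0.042), with replicate 2 inside the control range. Gins1 read 8.34, 2.93, 4.56, 6.47 and 4.81 in the Il23a-labelled mice (0.91 ± 0.28, adjusted p = 0.021), again with replicate 2 among the controls. Ccne1 read 6.96, 3.71, 3.88, 6.49 and 4.08, all above the highest control at 2.45 (0.98 ± 0.23, adjusted p = 0.0048). Mcm3 and Ccne1 passed in all 10 fits that each left out 1 library.

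Of the mitosis genes, Plk1, the kinase of mitotic entry and spindle assembly, read 13.3, 12.1, 14, 14.5 and 14.9 FPKM in Nemofl/fl and 29.2, 19.2, 24.4, 23.1 and 15.7 in the Il23a-labelled mice, without overlap (0.65 ± 0.22, adjusted p = 0.034). Cenpa read 18.5, 19.8, 22.5, 30.3 and 23.7 against 53.3, 29, 41.1, 45.3 and 27.5 (0.74 ± 0.27, adjusted p = 0.046). Ube2c, which hands ubiquitin to mitotic cyclins, read 30.3, 35.4, 41.5, 53.8 and 40.2 against 98.3, 55.3, 89.6, 77.7 and 49.9 (0.85 ± 0.31, adjusted p = 0.04). Cenpa and Ube2c overlapped with the controls only through Nemofl/fl replicate 4 (30.3 and 53.8 FPKM). The other controls lay below every Il23a-labelled library. Cenpa and Ube2c each passed in 3 of the 10 fits without 1 library, as did Plk1.

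**Figure D3:**
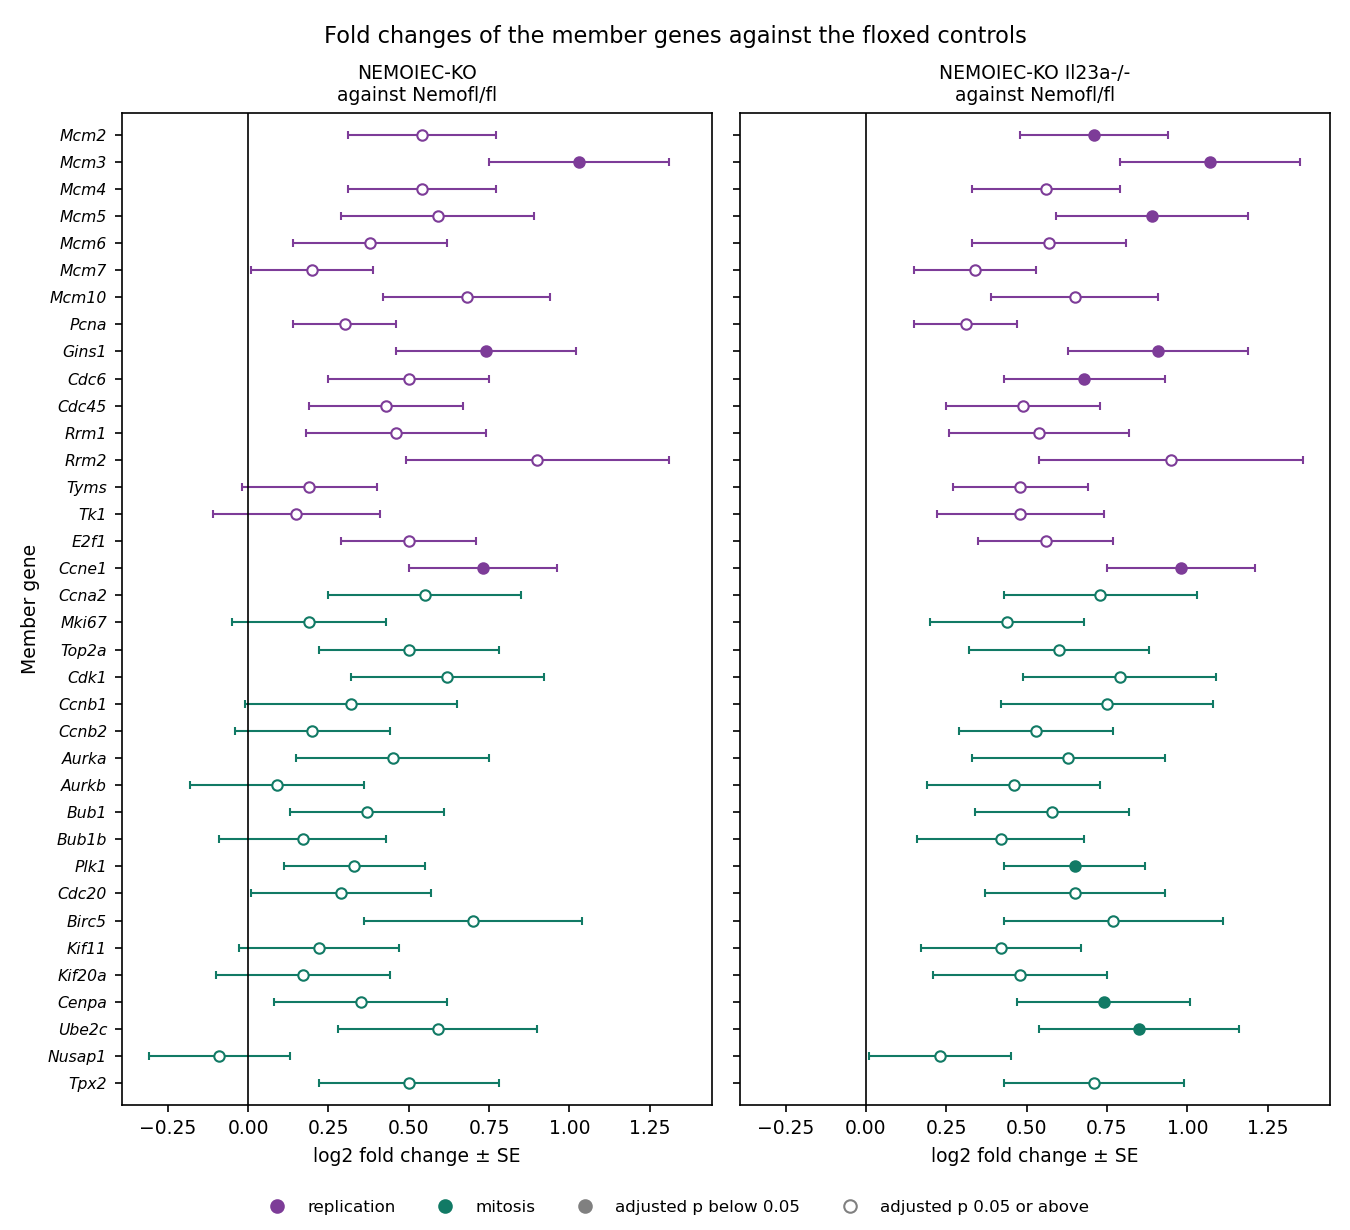
Log2 fold change ± SE of each member against Nemofl/fl in NEMOIEC-KO (left) and Il23a-labelled mice (right), with 5 libraries a genotype; filled points passed adjusted p below 0.05. In all, 3 points are filled at left and 9 at right, and 1 estimate, of Nusap1 at left, lies below 0.

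The Il23a-labelled count moved with single libraries of both groups. Leaving out Il23a-labelled replicate 2 gave 19 members and replicate 5 gave 16, while replicate 1 or replicate 4 gave 2 each. Without Nemofl/fl replicate 1 or 2 it was 3, without replicate 3 it was 5 and without replicate 4 it was 4. The shares of all genes called in these fits are not given here. The changes in count therefore cannot be told from a change in calls over all genes. All double mutants carry other library codes than Nemofl/fl, so code and genotype cannot be told apart within these 2 groups. A fit with the code as a term takes the difference between the 2 shared codes from NEMOIEC-KO alone. It also fits Il23a-labelled replicate 5 exactly, so it compares 4 Il23a-labelled libraries. It called 1 member, Mcm3, at a median log2 fold change of 1.12 over the members, and its share over all genes is not given here.

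Markers of other cell types moved with both results. Of 10 smooth muscle genes, 7 fell in NEMOIEC-KO and 9 in the Il23a-labelled mice against Nemofl/fl. Their summed FPKM ran from 2626 to 9339 in Nemofl/fl, 1584 to 4673 for NEMOIEC-KO, 1745 to 8269 in Il12b-labelled, 2052 to 9899 in Il12a-labelled and 1696 to 5079 in Il23a-labelled mice. Of 12 epithelial genes, 7 and 6 rose, and their sum ran from 12449 to 13548 in Nemofl/fl, 15465 to 17355 for NEMOIEC-KO, 12785 to 16564 in Il12b-labelled, 13438 to 17608 in Il12a-labelled and 15021 to 19127 in Il23a-labelled mice. Of 11 T cell genes 11 and 8 rose, of 10 plasma cell genes 9 and 9, of 10 neutrophil genes 8 and 3, and of 10 monocyte and macrophage genes 6 and 3 with 1 lower in each; of 9 B cell genes none passed, and of 6 germinal center genes 1 fell in NEMOIEC-KO. No crypt stem cell gene rose in either comparison, and 2 of the 9 tested fell in NEMOIEC-KO. No defining marker was at 0 in every library of a genotype. With the smooth muscle or the epithelial score as a covariate, no member was called in either comparison. With the smooth muscle score, 911 of 19266 genes were called higher in NEMOIEC-KO, against 2291 in the main fit, so calls fell over all genes too. For the other covariate fits the share over all genes is not given. In the fit with the smooth muscle score the median of the members was 0.07 in NEMOIEC-KO and 0.19 in the Il23a-labelled mice, and with the epithelial score it was 0.27 and 0.41. The classes differed in the latter fit: the replication median was 0.53 in NEMOIEC-KO and 0.68 in the Il23a-labelled mice, against 0.50 and 0.57 without the score, while the mitosis median was 0.15 and 0.35, against 0.33 and 0.63. With the smooth muscle score the replication median was 0.16 and 0.20 and the mitosis median -0.04 and 0.13.

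Within genotypes, the replication level had a Pearson r of -0.56 and a Spearman rho of -0.45 with the smooth muscle score, and the mitosis level -0.58 and -0.54, over 25 libraries. With the epithelial score the values of r were 0.05 and 0.19. The points share their libraries and the scaling to library size, under which a larger share of one tissue lowers the others. These values pool the 5 genotypes and do not hold for each: in Nemofl/fl, replicate 1 had the least smooth muscle RNA (2626 FPKM) and also the lowest mitosis level of its group, 3.26.

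**Figure D4:**
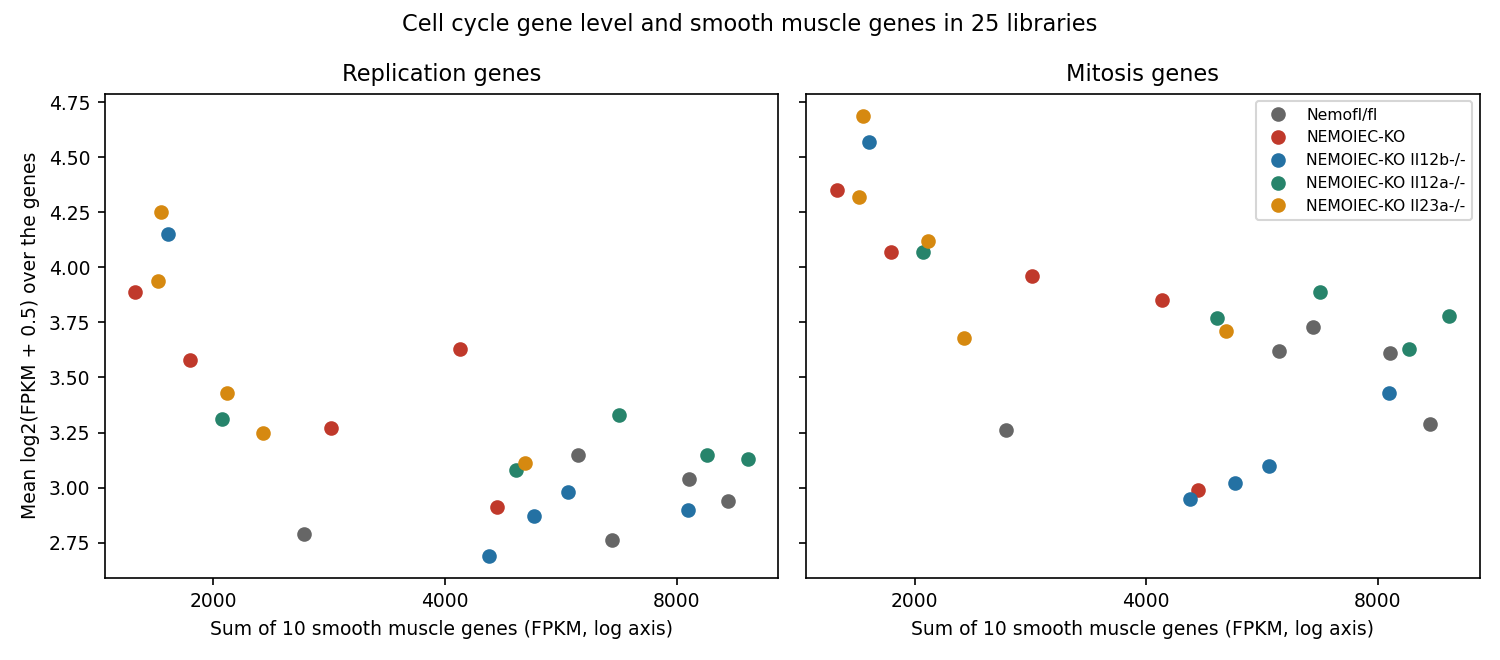
Mean log2(FPKM + 0.5) of the replication genes (left) and mitosis genes (right) against the summed FPKM of 10 smooth muscle genes (log axis), 1 point per library, coloured by genotype. Libraries above 4 on the mitosis scale have smooth muscle sums of 2085 FPKM or less, while Nemofl/fl replicate 1, at 2626 FPKM, is low on both scales.

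Between Il12b-labelled mice and NEMOIEC-KO no member passed the test when all libraries entered, and 17 passed when replicate 2 was left out. With all libraries none of 36 passed, and all 36 estimates were negative, with a median of -0.34 and a smallest adjusted p of 0.06 (limma). Over all genes, 14% were higher and 5.94% lower. An unadjusted p below 0.05 was found for 5 members, beside 6644 of 19266 genes. Without replicate 2, 17 members fell and none rose, against 7.83% of all genes called lower, with a median over the members of -0.63. Of the 17, 11 were among the 19 mitosis genes (median -0.71) and 6 among the 17 replication genes (median -0.48). That library was noticed by these genes' own values, so the count without it is a description of the other 4 libraries and no independent test.

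The 3 largest differences without that library, chosen here after their values were seen, were in Rrm2, Birc5 and Top2a. Rrm2, of ribonucleotide reductase, read 4.11, 18.1, 3.41, 3.08 and 2.58 FPKM in the Il12b-labelled mice and 5.56, 10.5, 15.9, 6.79 and 9.23 in NEMOIEC-KO, a log2 fold change of -0.88 ± 0.41 (adjusted p = 0.13) with and -1.34 ± 0.33 (adjusted p = 0.0065) without replicate 2. Top2a, the topoisomerase that untangles sister chromatids, read 22.1, 59.6, 28.6, 18 and 17.8 against 24.1, 51.8, 64.8, 43.9 and 49.7, with -0.76 ± 0.28 (adjusted p = 0.06) and -1.05 ± 0.24 (adjusted p = 0.0037). Birc5 read 26.3, 102, 39.5, 22.7 and 21.1 against 25.4, 69.7, 92, 59 and 59, with -0.69 ± 0.34 (adjusted p = 0.15) and -1.07 ± 0.27 (adjusted p = 0.007). The other genes of nucleotide supply had smaller estimates without replicate 2: Rrm1 passed (-0.67 ± 0.23, adjusted p = 0.04), and Tk1 (-0.51 ± 0.21, adjusted p = 0.077) and Tyms (-0.30 ± 0.19, adjusted p = 0.26) did not. In Rrm2, Top2a and Birc5, replicate 2 stood above the NEMOIEC-KO median and NEMOIEC-KO replicate 1 was the lowest of its group.

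Of the helicase subunits, Mcm2, Mcm4, Mcm5, Mcm6 and Mcm7 did not pass even without replicate 2, with estimates from -0.36 to -0.52, whereas Mcm3 (-0.83 ± 0.22, adjusted p = 0.01) and the helicase partner Mcm10 (-0.95 ± 0.21, adjusted p = 0.0034) did. Without NEMOIEC-KO replicate 1 instead, 6 members were lower. Among libraries of 1 code (all Il12b-labelled and NEMOIEC-KO replicates 1 and 2) none passed, with a median of -0.09. The shares of all genes called in these fits are not given here, so neither count can be set against genes at large. With all libraries, smooth muscle markers had positive estimates in 10 of 10 genes and none passed, 6 of 12 epithelial markers fell and 1 rose, 3 of 9 crypt stem cell markers rose, and 4 of 11 T cell, 5 of 10 neutrophil and 2 of 10 plasma cell markers fell. Without replicate 2, 6 of 12 epithelial, 6 of 11 T cell, 6 of 10 neutrophil and 1 of 10 plasma cell markers fell, 2 of 9 crypt stem cell markers rose, and no smooth muscle or B cell marker passed. Their part in the result was not tested.

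Against Nemofl/fl the Il12b-labelled mice had no member called, with a median of 0.03 (0.249% of all genes were higher and 0.119% lower). Unadjusted p was below 0.05 for 1 member, beside 2708 of 19266 genes. Without replicate 2 the median was -0.26 and again none passed. These 4 libraries had a mitosis median of -0.36 and a replication median of -0.08.

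**Figure D5:**
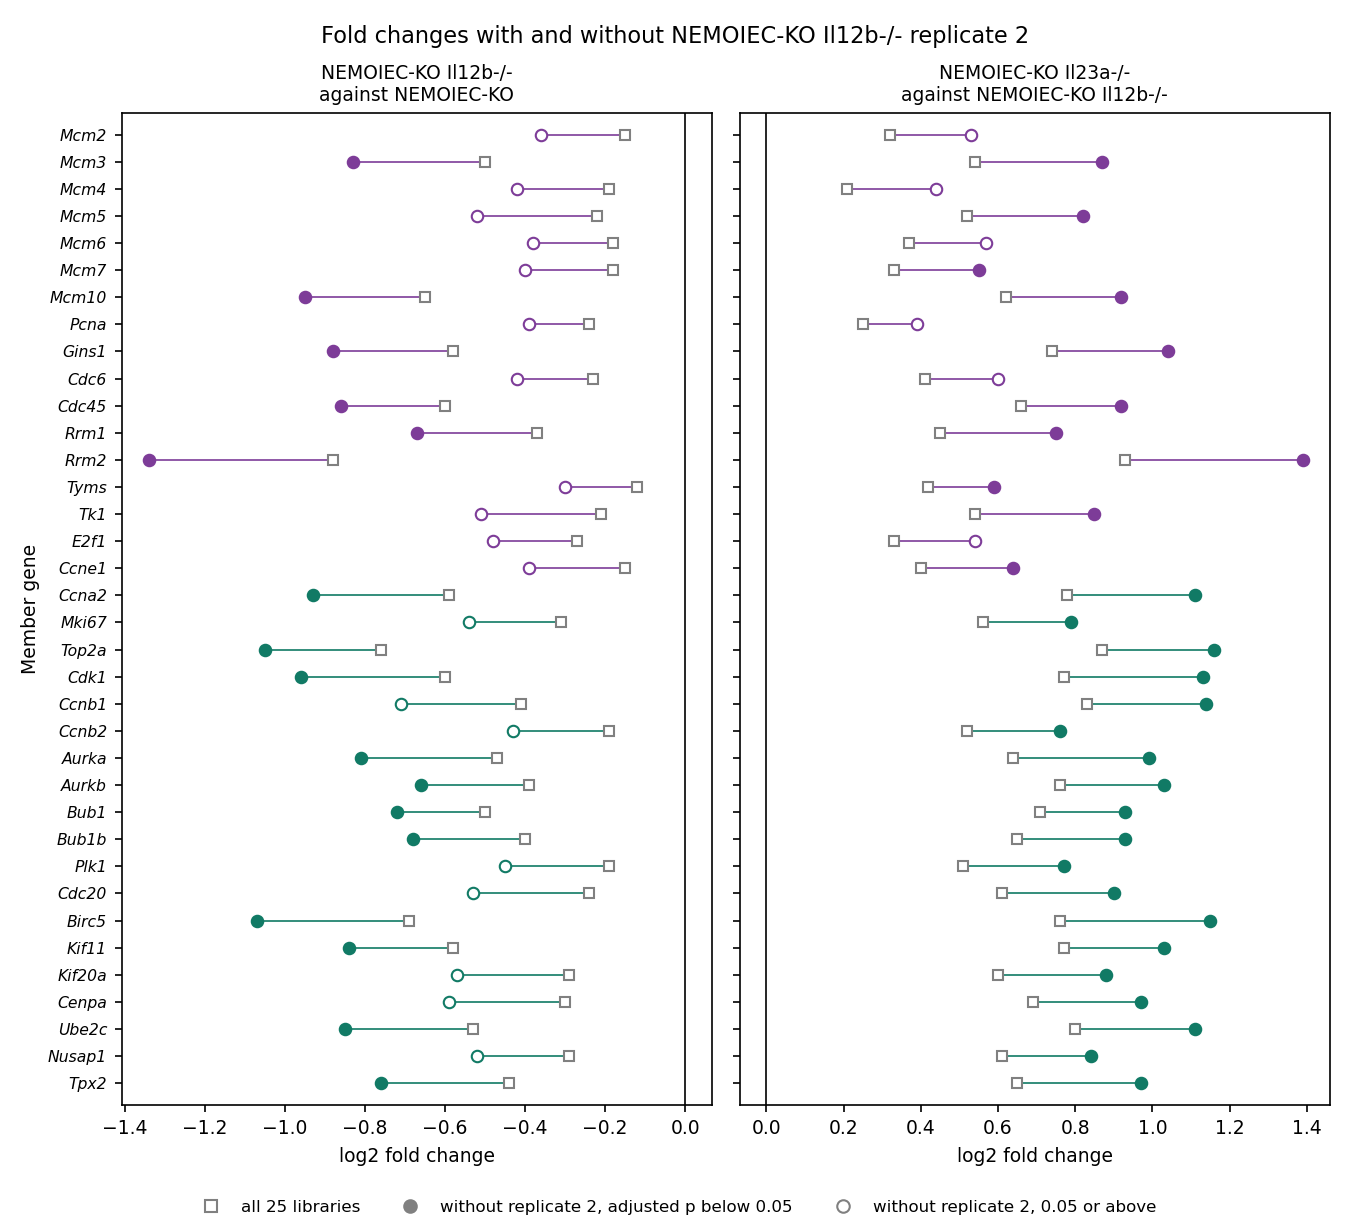
Log2 fold changes of each member with all 25 libraries (squares) and without Il12b-labelled replicate 2 (circles, filled where adjusted p was below 0.05), for Il12b-labelled against NEMOIEC-KO (left) and Il23a-labelled against Il12b-labelled mice (right). All circles lie farther from 0 than the squares; 17 are filled at left and 30 at right.

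The contrast between Il23a-labelled and Il12b-labelled mice turned on the same library. With all libraries no member passed the adjusted threshold, where 1.93% of all genes were higher and 3.18% lower. An unadjusted p below 0.05 was found for 23 of 36 members and for 4962 of 19266 genes (limma). All 36 estimates were positive, and the median was 0.61. Without Il12b-labelled replicate 2, 30 members were higher in the Il23a-labelled mice, against 5.75% of all genes. They comprised 19 of 19 mitosis genes (median 0.97) and 11 of 17 replication genes (median 0.64). Here too the library was noticed by these genes' own values. The counts and adjusted p without it therefore describe the remaining libraries and are no independent test. Plk1 was 0.77 ± 0.18 (adjusted p = 0.0092), Kif11, a kinesin that separates spindle poles, 1.03 ± 0.21 (adjusted p = 0.0052), and Cdk1, the kinase of mitosis, 1.13 ± 0.24 (adjusted p = 0.0054). Pcna (0.39 ± 0.15, adjusted p = 0.077) and Mcm4 (0.44 ± 0.20, adjusted p = 0.13) were among the 6 that did not pass. With all libraries smooth muscle markers had negative estimates in 10 of 10 genes, with a median of -0.90, and none passed; without replicate 2, 4 of 10 were lower, with a median of -1.22, and 4 of 12 epithelial and 3 of 11 T cell markers were higher.

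In the other comparisons no member was called. For Il23a-labelled mice against NEMOIEC-KO the median over members was 0.19 and estimates ran from -0.03 to 0.43. That comparison called 0.0467% of all genes higher and 0.0363% lower. None of the members had an unadjusted p below 0.05, beside 2026 of 19266 genes. Il12a-labelled mice against NEMOIEC-KO gave a median of -0.11, with backgrounds of 5.61% higher and 4% lower at the adjusted threshold. No member had an unadjusted p below 0.05, beside 5635 of 19266 genes. The replication median was -0.30 and the mitosis median -0.02 there. Il12a-labelled mice against Nemofl/fl had 36 of 36 positive estimates with a median of 0.29 and backgrounds of 0.773% and 0.571%. Unadjusted p was below 0.05 for 2 members (Mcm3, 0.60 ± 0.28, and Ccne1, 0.50 ± 0.23) and for 3812 of 19266 genes.

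The Il12a-labelled mice against the Il12b-labelled had a median of 0.34 and no member called (backgrounds 0.176% higher and 0.234% lower). Unadjusted p was below 0.05 for 2 members, beside 1250 of 19266 genes. Without Il12b-labelled replicate 2 the estimates ran from 0.02 (Mcm2) to 0.96 (Birc5). None passed there either, with a smallest adjusted p of 0.098, for Top2a (limma). The Il23a-labelled against the Il12a-labelled had a median of 0.29 (backgrounds 0.763% higher and 0.4% lower). Unadjusted p was below 0.05 for 4 members, beside 3856 of 19266 genes. These comparisons share libraries, and a missed threshold does not show that the genotypes were alike.

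Mki67 and Pcna, the usual markers of dividing cells, show how far the libraries spread. Mki67 read 8.64, 8.41, 10.5, 11.7 and 10.8 FPKM in Nemofl/fl, 6.05, 14.3, 15.7, 12.1 and 11.6 for NEMOIEC-KO, 7.07, 17.6, 10.4, 6.75 and 7.06 in Il12b-labelled, 13.4, 10.6, 12.6, 11.2 and 12.3 in Il12a-labelled and 20.3, 11.5, 12.4, 15.4 and 10.6 in Il23a-labelled mice. Its lowest library was NEMOIEC-KO replicate 1 and its highest Il23a-labelled replicate 1, and all genotypes overlapped with Nemofl/fl.

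Pcna, the highest replication member per length (mean 35.4 FPKM over 25 libraries), read 33.6, 27.5, 34, 29.5 and 32.6 in Nemofl/fl, 34.5, 38.7, 42.4, 32.6 and 47.4 for NEMOIEC-KO, 28.7, 49, 30.9, 26.9 and 32 in Il12b-labelled, 35.3, 29.9, 28.8, 32.5 and 37.8 in Il12a-labelled and 59, 28.9, 33.8, 44.9 and 34.8 in Il23a-labelled mice. Neither gene passed in any comparison with all libraries. On the FPKM scale levels ran from 1.59 (Cdc6) to 35.4 (Pcna) among replication genes and from 1.96 (Bub1) to 57 (Ube2c) among mitosis genes.

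Further genes of the cell cycle were read from fixed lists. Of 57 other replication genes, 3 (5.26%) rose in NEMOIEC-KO against Nemofl/fl, below the 11.9% of all genes, with Fen1, the flap endonuclease, at 0.76 ± 0.28 (adjusted p = 0.044) and Rpa3, of the single-strand binding complex, at 0.38 ± 0.12 (adjusted p = 0.025). In the Il23a-labelled mice 11 (19.3%) rose and 1 fell, beside 12.6% of all genes higher, with the histone chaperone Asf1b at 0.94 ± 0.33 (adjusted p = 0.036), Fen1 at 0.83 ± 0.28 (adjusted p = 0.032) and the origin recognition subunit Orc5 at -0.27 ± 0.09 (adjusted p = 0.032). The list medians were 0.25 and 0.36, beside -0.08 and -0.05 over all genes. Of 63 other mitosis genes 2 (3.17%) rose in NEMOIEC-KO, Cks1b (0.90 ± 0.29, adjusted p = 0.022), a small partner of cyclin-dependent kinases, and Pimreg (0.62 ± 0.19, adjusted p = 0.016), and 7 (11.1%) rose in the Il23a-labelled mice, among them Pimreg at 1.03 ± 0.19 (adjusted p = 0.00093). Both mitosis shares were below those of all genes.

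Without Il12b-labelled replicate 2, these lists gave more calls: against NEMOIEC-KO 11 of 57 replication and 32 of 63 mitosis genes were lower and none higher, beside 7.83% of all genes lower. In the Il23a-labelled against Il12b-labelled comparison 20 and 52 were higher and none lower, beside 5.75% of all genes higher. With all libraries the counts in the first comparison were 0 and 1, and in the second 0 and 2. Most genes of both lists were highest in that library within its genotype (52 of 57 and 62 of 63). The counts without it are therefore a description of the remaining libraries and no independent test.

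The 1 mitosis gene lower in Il12b-labelled mice with all libraries was Pttg1, which encodes securin, the inhibitor of sister chromatid separation. It read 20.9, 42.7, 20.9, 20.1 and 16 FPKM there, 47.5, 46, 44.8, 46.9 and 46.8 in Nemofl/fl and 38.9, 36.4, 31.9, 38.8 and 44.4 in NEMOIEC-KO. The log2 fold change was -0.72 ± 0.18 against NEMOIEC-KO (adjusted p = 0.0077) and -1.01 ± 0.18 against Nemofl/fl (adjusted p = 0.0083), with replicate 2 again near the level of the other genotypes. Its NEMOIEC-KO libraries were all below the Nemofl/fl ones, where 35 of 36 members had positive estimates. It lies at chr11:43420250-43426251, on the chromosome of Il12b (chr11:44400063-44414033), with 973811 bases between the genes (GRCm38, GENCODE).

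Among the G1 regulators, Ccnd1 (cyclin D1) was higher in NEMOIEC-KO than in Nemofl/fl (0.87 ± 0.19, adjusted p = 0.0016) and lower in Il12b-labelled (-0.68 ± 0.19, adjusted p = 0.014) and Il12a-labelled mice (-0.66 ± 0.19, adjusted p = 0.031) than in NEMOIEC-KO. It read 20.4, 24.7, 21.9, 16.4 and 19 FPKM among the controls and 25.7, 36, 56.9, 41.3 and 34.4 in NEMOIEC-KO, without overlap, and in Il12b-labelled replicate 2 it was 25.4, inside the range of its group (17.1 to 26.8). Cdk6, a partner of the D cyclins, fell in NEMOIEC-KO (-0.56 ± 0.17, adjusted p = 0.015). Of the 9 genes of this list 1 rose (11.1%) and 1 fell (11.1%) in NEMOIEC-KO, beside 11.9% higher and 20.3% lower over all genes. In the Il23a-labelled mice 3 rose (33.3%) and 1 fell (11.1%), beside 12.6% and 17%.

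The E2F and Rb family, 16 genes, held calls in both directions. In NEMOIEC-KO 2 rose (12.5%) and 6 fell (37.5%), beside 11.9% higher and 20.3% lower over all genes. In the Il23a-labelled mice 3 rose (18.8%) and 4 fell (25%), beside 12.6% and 17%. E2f2, an activator of replication genes, had the largest rise, 1.77 ± 0.51 in NEMOIEC-KO (adjusted p = 0.012) and 1.68 ± 0.51 in the Il23a-labelled mice (adjusted p = 0.019). It read 1.27, 2.51, 2.86, 1.26 and 2.63 FPKM in Nemofl/fl and 4.47, 10.1, 13.6, 8.02 and 6.67 for NEMOIEC-KO. In Il23a-labelled mice it read 13.4, 2.93, 12.1, 15.2 and 3.05, with replicates 2 and 5 near the highest control. The Il12a-labelled mice had 9.85, 4.77, 3.85, 2.35 and 2.72. The Il12b-labelled mice had 1.71, 12.1, 2.37, 1.47 and 1.2, so replicate 2 again stood apart. Against NEMOIEC-KO its log2 fold change in the Il12b-labelled mice was -1.48 ± 0.51 (adjusted p = 0.044). Lin52, of the DREAM complex that represses cell cycle genes, fell in NEMOIEC-KO (-0.70 ± 0.13, adjusted p = 0.00041).

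Of 11 cell cycle inhibitors, 1 rose (9.09%) and 3 fell (27.3%) in NEMOIEC-KO, beside 11.9% higher and 20.3% lower over all genes. In the Il23a-labelled mice none rose and 3 fell (27.3%), beside 12.6% and 17%. Cdkn2b, an inhibitor of the cyclin D kinases, fell in NEMOIEC-KO (-0.72 ± 0.20, adjusted p = 0.0093), as did Cdkn1c (-0.60 ± 0.17, adjusted p = 0.0098). Cdkn2a rose by 0.88 ± 0.28 (adjusted p = 0.021), with values of 0.206, 0.18, 2.15, 1.34 and 0.109 FPKM, so replicates 3 and 4 carried the difference, against 0 to 0.259 in the controls.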

How the data were processed

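RNA sequencing values of distal colon from 25 mice were used as deposited. The authors deposited FPKM per Ensembl gene and library. Build GRCm38 and the programs DESeq2 1.10.1, Cufflinks 2.1.1 and TopHat2 2.0.10 are listed, with no role stated, per the submitters' processing notes, and the annotation release is not given in the sources used here. Per the labels' protocols, libraries were stranded and poly(A)-selected. Read counts were not used here, so depth is unknown and no counting interval is given.

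Groups came from the genotype labels, and replicates are separate mice. The replicate numbers do not pair libraries (median correlation 0.0071 over 50 same-numbered and 0.0086 over 200 other pairs). Of 49452 identifiers, 49109 matched a symbol and 49195 a position in the GENCODE annotation of GRCm38. A gene was kept where 5 or more libraries reached 0.2 FPKM (19266 genes). Values were taken as log2(FPKM + 0.5), so fold changes understate those of low genes, and fitted in limma 3.58.1 (R 4.3.3) with 1 mean per genotype over all 25 libraries, trended empirical Bayes variance and 20 residual degrees of freedom. Tests were two-sided, and p-values were adjusted by Benjamini-Hochberg over all genes tested in each of 10 comparisons, with 0.05 as the threshold. The scripts were tested on simulated data.

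All 36 members passed the filter and are accounted for. Values by library are given for the members called in a comparison and for Mki67 and Pcna, and from each other cell cycle list the 2 largest called changes in each direction could be named; promoters are shown for the called members with the smallest adjusted p whose window holds a searched word, up to 3 a class. Genes chosen after their values were seen are named as such in the text or here. This holds for the choice of Pttg1, Ccnd1, E2f2 and Cdkn2a for values by library. It also holds for single estimates quoted for members not called with all libraries, such as Mcm10, Nusap1, Kif11 and Cdk1. Members and lists were chosen with earlier results of these data known. Promoter sequences are from RefSeq (GRCm38.p6). Alternatives were the pseudocount (0.1 and 1), the filter, the scaling, covariates, the samples in the fit, the library code, a replicate block and leaving out each library.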

Additional observations from a re-analysis of the deposited data

Results flagged for a closer look

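Of 195 sets of 5 libraries examined (members and class levels by genotype), 35 held a value whose gap to its nearest neighbour exceeded 0.71 of the range of the 5 (Dixon's criterion at 95%). Chance marks about 1 set in 20 where sets are independent. These sets share libraries and their genes moved together, so that rate is no benchmark for the 35. All but 1 of the 35 were in the same library, replicate 2 of the Il12b-labelled mice, which was the highest of its group in each. In FPKM, the helicase and fork genes read Mcm2 15.3, Mcm3 46.7, Mcm4 11.5, Mcm5 25.2, Mcm7 31.7, Mcm10 9.61, Gins1 7.23, Cdc45 6.68 and Pcna 49 there. The genes of nucleotide supply read Rrm1 48.1, Rrm2 18.1, Tyms 45.7 and Tk1 55.5, and the S phase regulators E2f1 5.08 and Ccne1 7.42. The mitotic cyclins and kinases read Ccna2 40.9, Ccnb1 13.9, Ccnb2 39, Cdk1 61.4, Plk1 32, Aurka 23.1 and Aurkb 19.4, and the checkpoint and cyclin breakdown genes Bub1 2.88, Bub1b 10, Cdc20 43.8 and Ube2c 99.8. The chromosome and spindle genes read Top2a 59.6, Birc5 102, Cenpa 52, Kif11 6.82, Kif20a 5.42, Nusap1 9.52 and Tpx2 15.3. The replication level of that library was 4.15 on the log2 scale, where the other 4 lay between 2.69 and 2.98. Aurka, the Aurora A kinase of spindle poles, was the exception in another group, at 14 FPKM in Il12a-labelled replicate 1 against 10.2 to 11.3 in the other 4.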

How the results depend on the processing

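Counts of members called moved with the processing, and no called fold change reversed. For NEMOIEC-KO against Nemofl/fl (3 called), median-of-ratios scaling gave 7, a fit of only the 2 genotypes 9, the libraries of 1 code 20, a smooth muscle covariate 0 and an epithelial covariate 0; leaving out 1 library gave 1 to 11. For Il12b-labelled mice against NEMOIEC-KO (0 called), median-of-ratios scaling gave 3 and leaving out 1 library 0 to 17. For Il12a-labelled mice against Nemofl/fl (0 called), a fit of only the 2 genotypes gave 6. For Il23a-labelled mice against Nemofl/fl (9 called), no filter on low values gave 4, median-of-ratios scaling 16, the smooth muscle and epithelial covariates 0 and 0, the code as a term 1, and leaving out 1 library 2 to 19. For Il23a-labelled against Il12b-labelled mice (0 called), median-of-ratios scaling gave 2, the code as a term 2, and leaving out 1 library 0 to 30; Il23a-labelled replicates 2 and 5 moved it to 3 and 2. The cause was not tested. Calls over all genes moved too. In NEMOIEC-KO against Nemofl/fl, the main fit called 2291 of 19266 genes higher. Median-of-ratios scaling called 3057 of 19234, and the smooth muscle covariate 911 of 19266. In Il23a-labelled mice against Nemofl/fl, the main fit called 2420 of 19266 higher. That scaling called 3041 of 19234, and no filter 1955 of 31239. For most other settings no share over all genes is given, so those member counts cannot be set against it. Median-of-ratios scaling moved the median over all genes in Il12b-labelled mice against NEMOIEC-KO from 0.11 to 0.00, and the share of calls that were higher from 70.2% to 42.8% there and from 36.9% to 51.4% in NEMOIEC-KO against Nemofl/fl. With a replicate block the counts were 2 for NEMOIEC-KO and 7 for Il23a-labelled mice against Nemofl/fl, and 0 in the other comparisons.

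For 11 named members, 2277 alternative fold changes were computed: 94 lost their call, 28 gained one and 92 estimates that were not called changed sign. Only fold changes called in the main fit could lose a call, so the 94 are not a share of all 2277. Those called were the 3 in NEMOIEC-KO and the 9 in Il23a-labelled mice against Nemofl/fl. Outside the fits that left out 1 library, Mcm3 in NEMOIEC-KO kept its call in 9 of 11 alternatives and Gins1 in 5 of 11. In the Il23a-labelled mice Mcm3 kept it in 8 of 10 and Cdc6 in 4 of 10. The mean class level of the Il12b-labelled mice moved with replicate 2, whose replication level was 4.15 where the rest of its group lay between 2.69 and 2.98. FPKM without counts leave the precision of low genes such as Cdc6 and Bub1 unknown, and whole tissue with unequal muscle content limits every comparison here.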
